A study of Mus musculus with 6 samples.

Results

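AP-1 is a group of transcription factors that bind DNA as pairs of basic leucine zipper (bZIP) proteins, and its 10 genes described here are *Fos*, *Fosb*, *Fosl1*, *Fosl2*, *Jun*, *Junb*, *Jund*, *Atf3*, *Batf* and *Batf3*. All non-control probes under these 10 gene names were taken, which gave 11 probes of the 55681 on the array and 10 of its 34298 gene names. *Fosl2* had 2 probes and every other member 1, and a gene was read by its brightest probe.

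FOS proteins cannot pair with themselves and bind DNA only with a JUN partner, whereas JUN proteins also pair with each other. Many members are immediate-early genes, whose transcripts rise within minutes of a growth factor or a stress and then decay. In stratified epithelium AP-1 is known for driving genes of keratinocyte differentiation, and ATF3 and the BATF proteins are relatives that pair mainly with JUN proteins.

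Transcripts of mouse organoids, which are epithelial cultures grown in a gel matrix, were measured at passage 0 on 6 single-color arrays, 3 of esophagus and 3 of stomach. Organoids of both tissues came from mice 1, 2 and 4, labelled as controls, and strain and age of these mice are not given in the labels. Cultures were harvested on day 8, and those of stomach from mouse 4 on day 7. Per the methods, esophagus cultures were seeded as single cells and stomach cultures as glands of the corpus. The stomach medium carried WNT3A, R-spondin1 and gastrin, and the esophagus medium carried forskolin, which raises cAMP, in their place. EGF, noggin, FGF-10, nicotinamide, N-acetyl-L-cysteine and inhibitors of the TGF-β receptor kinase and of ROCK were in both media. Tissue, medium and starting material therefore cannot be told apart in any difference between the groups.

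The tissue labels were checked against markers of each epithelium. All 12 columnar stomach markers were higher in stomach organoids, and 9 of 10 squamous markers were higher in esophagus organoids. The exception was *Trp63*, whose brightest probe gave the opposite sign. Of 11 fibroblast and smooth muscle markers, none was detected (well above background on all 3 arrays of esophagus or all 3 of stomach). Between 45.5% and 51.1% of non-control spots per array were well above background by the software's flag, and no spot was saturated. Correlation of an array with each of the other 2 arrays of its tissue, averaged over these 2, was 0.981 to 0.991 over probes. Of the arrays, 5 shared a slide, and esophagus 4 lay alone on another, so its slide and its sample cannot be told apart.

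The question for each member was whether its level separated the tissues or stood out on a single array. *Fosl1* and *Junb* were higher in esophagus organoids on every array, and *Batf*, a dim gene, was higher in stomach organoids. *Fosb*, *Atf3* and *Fos* were instead set apart by the esophagus organoids of mouse 2, where they lay 5.28 to 8.68 log2 units above the mean of the other 2 esophagus arrays. *Jun* was also highest on that array, but its 3 esophagus arrays were spread about evenly. Of the 10 members, 3 passed an adjusted p of 0.05 between tissues (limma, Benjamini-Hochberg over all probes), against 14.9% of all gene names. The 2 higher in esophagus compare with 7.15% of gene names, and the 1 higher in stomach with 7.7%. Groups did not overlap for 5 of 10 members and for 31.6% of gene names. The median difference was 0.51 over the members and 0.03 over all gene names. Values below are the deposited log2 values, differences are esophagus minus stomach with 3 arrays each, and levels of different probes are not compared. In these bulk samples, fewer cells of a type and less RNA per cell cannot be told apart.

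**Figure D1:**
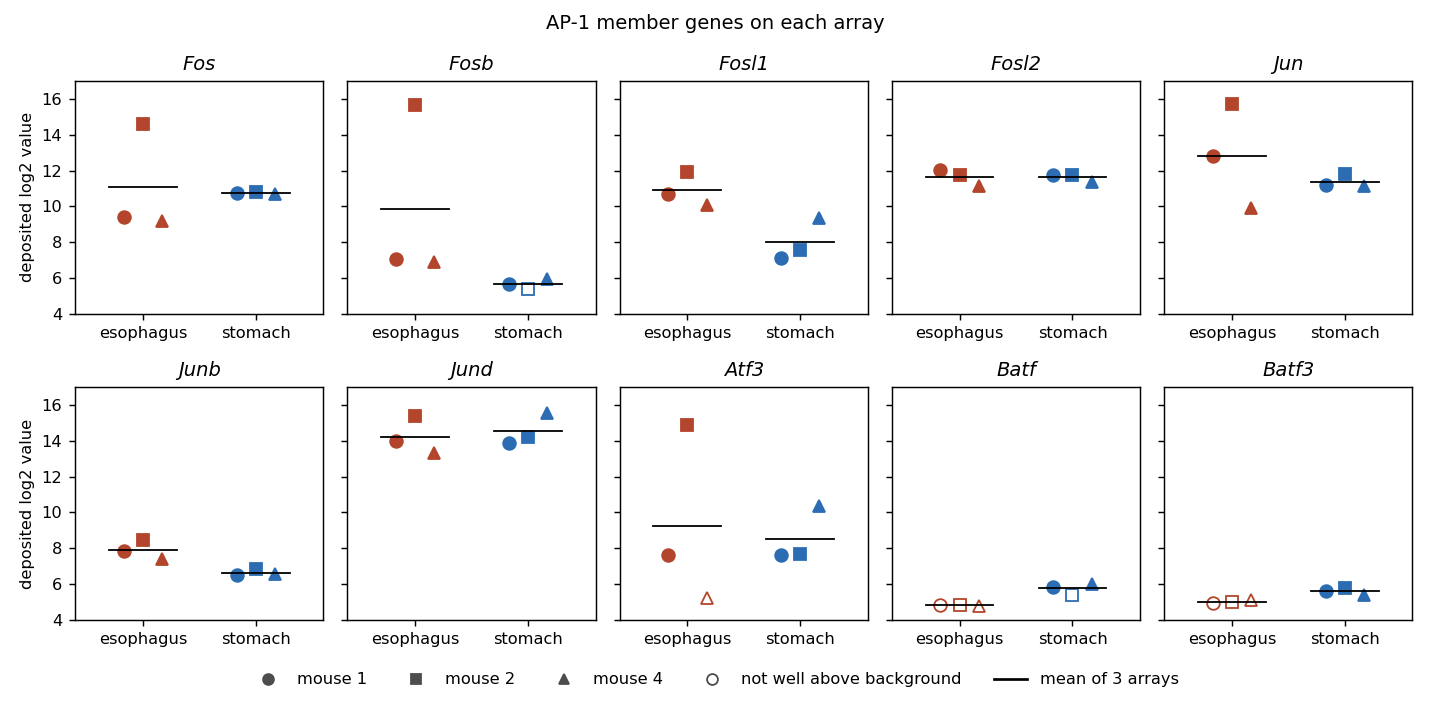
Deposited log2 value of each AP-1 member gene (brightest probe, vertical axis) on each array, by tissue and mouse. Filled symbols were well above background, open symbols were not, and bars are means of 3 arrays. The square of mouse 2 lies above the other esophagus symbols for *Fos* (14.59), *Fosb* (15.66), *Jun* (15.74) and *Atf3* (14.86).

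Among the FOS genes, *Fosl1* encodes FRA-1, a FOS protein without the strong activation domain of FOS, and it was the member with the largest called difference. Its probe (chr19:5455496-5455555, mm9) read 10.68, 11.91 and 10.09 in the esophagus organoids of mice 1, 2 and 4. In stomach organoids it read 7.13, 7.54 and 9.35. The groups did not overlap, although the stomach organoids of mouse 4 came within 0.75 of the esophagus organoids of the same mouse. The difference was 2.89 ± 0.64 (SE), a 7.42-fold higher level in esophagus, with an adjusted p of 0.0237. Without esophagus 2 it was 2.38 ± 0.63 with an adjusted p of 0.0707, and without stomach 1 or stomach 2 the adjusted p was 0.0994 or 0.106. With 1 array left out it ranged from 2.38 to 3.56 (adjusted p 0.00433 without stomach 4), or 5.22-fold to 11.8-fold.

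*Fos* encodes the founding FOS protein and is carried by 10 spots per array (chr12:86817900-86817959). It read 9.41, 14.59 and 9.21 in esophagus organoids and 10.72, 10.80 and 10.69 in stomach organoids. The stomach arrays differed by at most 0.11, 2 esophagus arrays lay below all of them and the esophagus organoids of mouse 2 lay above. Over the 10 spots of an array the SD was 0.092 to 0.153, and on esophagus 2 the lowest spot still read 14.44. The difference over all arrays was 0.33 ± 1.28 with an adjusted p of 0.919. Without esophagus 2 it turned to -1.43 ± 0.17, with an adjusted p of 0.00283.

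*Fosb*, which also gives a shortened stable protein by splicing, read 7.06, 15.66 and 6.90 in esophagus organoids (chr7:19888168-19888227). In stomach organoids it read 5.66, 5.36 and 5.92, and the value of mouse 2 there was not well above background. Every esophagus array lay above every stomach array, but the array of mouse 2 lay 8.68 above the mean of the other esophagus arrays. The difference of 4.23 ± 2.10 had an adjusted p of 0.28. Without esophagus 2 it was 1.33 ± 0.21 with an adjusted p of 0.0107, and without esophagus 1 or esophagus 4 it was 5.64 or 5.71, with adjusted p-values of 0.167 and 0.159.

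*Fosl2* encodes FRA-2. Its bright probe (chr5:32460076-32460135) read 12.04, 11.73 and 11.13 in esophagus organoids and 11.76, 11.73 and 11.35 in stomach organoids, and the groups overlapped. The difference was 0.02 with a 95% interval of -0.57 to 0.60 and an adjusted p of 0.978. A second, dim probe (chr5:32455088-32455147) read 5.33 to 5.98 and 5.53 to 6.08, with a difference of -0.15 and an adjusted p of 0.767. The sign of so small a difference varied with the processing.

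Among the JUN genes, *Junb*, whose protein can oppose JUN at some target genes, read 7.83, 8.44 and 7.42 in esophagus organoids (chr8:87501881-87501940). In stomach organoids it read 6.49, 6.86 and 6.55. The lowest esophagus array lay above the highest stomach array. The difference was 1.26 ± 0.26, or 2.40-fold, with an adjusted p of 0.0187, and it was 0.99 ± 0.21 with an adjusted p of 0.034 without esophagus 2. Without stomach 1 the adjusted p was 0.0886, with background-subtracted intensities scaled to the 75th percentile 0.0564 and with an offset of 50 on mean signals 0.0614. Within each mouse the esophagus value was higher, by 1.33, 1.58 and 0.87 in mice 1, 2 and 4.

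*Jun* is the main partner of FOS proteins. Its probe (chr4:94716928-94716987) read 12.81, 15.74 and 9.89 in esophagus organoids and 11.21, 11.81 and 11.14 in stomach organoids. The 3 esophagus arrays lay far apart, 2 above the stomach range and 1 below it. The difference of 1.43 ± 1.24 had an adjusted p of 0.571. Without esophagus 2 it was -0.03 ± 0.77, and without esophagus 4 it was 2.89 ± 0.75 with an adjusted p of 0.0551.

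*Jund*, the JUN gene that most cells express at rest, read 13.98, 15.41 and 13.35 in esophagus organoids (chr8:73224436-73224495). In stomach organoids it read 13.90, 14.23 and 15.56. The groups overlapped, and the highest values were those of esophagus 2 and stomach 4. The difference was -0.32 ± 0.59 with an adjusted p of 0.821. Its sign turned to 0.13 without esophagus 4, to 0.18 without stomach 4 and to 0.04 with background-subtracted intensities scaled to the 75th percentile, which changes background handling and scaling together.

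*Atf3* encodes a stress-responsive bZIP factor that pairs with JUN proteins. It read 7.64, 14.86 and 5.21 in esophagus organoids (chr1:192994547-192994606), and the value of mouse 4 was not well above background. In stomach organoids it read 7.61, 7.66 and 10.36. Esophagus organoids thus held both the highest and the lowest *Atf3* array of the study. The difference of 0.70 ± 2.20 had an adjusted p of 0.90, and without esophagus 2 it was -2.12 ± 1.01 with an adjusted p of 0.305. Without esophagus 4 it was 2.71 ± 1.93 with an adjusted p of 0.487, so the direction turned on which array was left out.

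*Batf* and *Batf3* encode small bZIP proteins known from lymphocytes and dendritic cells. *Batf* (chr12:87049872-87049929) read 4.84, 4.81 and 4.80 in esophagus organoids, none above the flag, and 5.84, 5.39 and 6.03 in stomach organoids, of which mouse 2 was not. The groups did not overlap. *Batf* was at least 1.71-fold higher in stomach organoids, as the stomach mean against the higher of the dim probe and the lowest detected signal, with an adjusted p of 0.0161. It was 0.0546 without esophagus 2 and 0.079 without stomach 1. The fitted difference, -0.94 on the deposited values, was -2.90 with 75th percentile scaling of the background-subtracted intensities.

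*Batf3* (chr1:192932528-192932587) read 4.92, 4.99 and 5.12 in esophagus organoids, none well above background, and 5.61, 5.78 and 5.39 in stomach organoids. The groups did not overlap and stomach was at least 1.43-fold higher, but the adjusted p was 0.0551. *Batf3* was called in 6 of 15 alternatives, and its fitted difference of -0.58 was -2.26 with these intensities and scaling (adjusted p 0.00313). Of 15 immune cell markers on the array, 5 were detected in this sense, and 2 of these, *Cd14* and *Itgam*, were higher in stomach organoids. Summed on a linear scale, the immune markers reached 6023 to 31360 in esophagus organoids and 15670 to 21800 in stomach organoids. On that scale *Cd68* read 3567 to 28030 in esophagus organoids and 2099 to 5260 in stomach organoids. *Itgam* read 1422 to 2327 in esophagus organoids and 7952 to 14530 in stomach organoids. Intensities of different probes give no shares of cells, so the sum is only a description. *Ptprc*, which defines blood cells, and *Itgax*, *Xcr1* and *Clec9a* of dendritic cells were not detected in either tissue. The lymphocyte markers *Cd3e* (7.23 to 8.34) and *Cd4* (7.62 to 8.30) and the macrophage marker *Cd68* (11.04 to 14.78) were detected on all 6 arrays and not called. The part of immune cells in the *Batf* values was not tested.

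**Figure D2:**
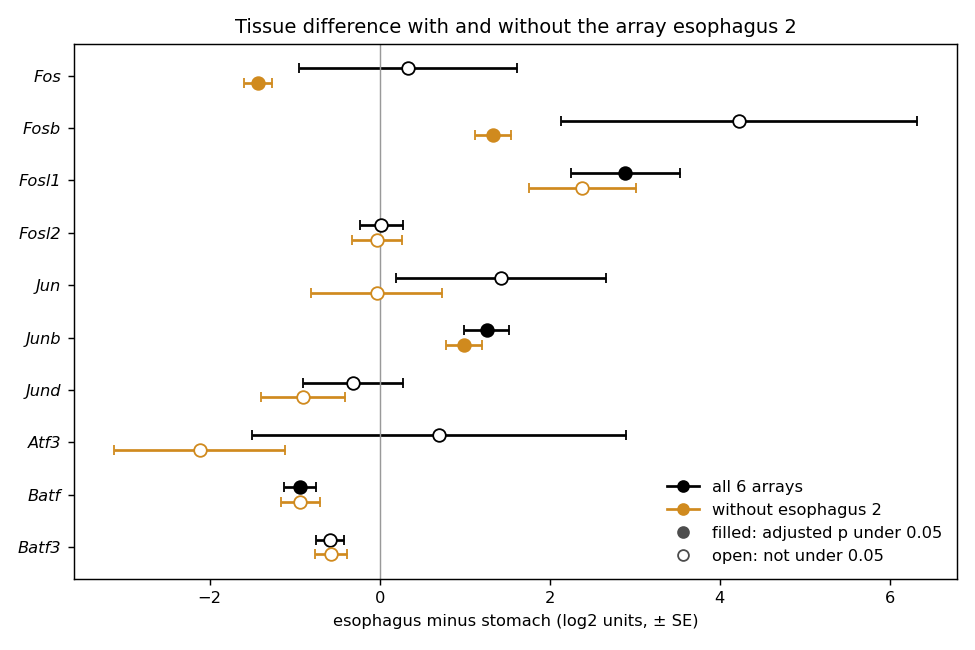
Difference between tissues (esophagus minus stomach, log2 units, horizontal axis) of each AP-1 member gene with its standard error, from all 6 arrays (black) and without esophagus 2 (orange). Filled points passed an adjusted p of 0.05. *Fos* moves from 0.33 to -1.43 and *Fosb* from 4.23 to 1.33, whereas *Junb* is filled in both fits.

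Leaving out esophagus 2 kept the number of called members at 3 of 10, beside 11.1% of all gene names, and changed which they were. *Junb* was called in both fits. *Fosl1* and *Batf* were no longer called, and *Fosb*, higher in esophagus, and *Fos*, lower in esophagus, were. Of all gene names 5.27% were then higher and 5.86% lower in esophagus, and the median difference of the members was -0.30. Groups then did not overlap for 6 of 10 members, beside 39.5% of gene names. Without stomach 1 none of the 10 members passed (limma) and 9.16% of gene names did, although 4 members had an unadjusted p under 0.05.

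The single-array levels were described by the log2 value of an array minus the mean of the other 2 arrays of its tissue. On esophagus 2 the departure was 8.68 for *Fosb*, 8.44 for *Atf3*, 5.28 for *Fos* and 4.39 for *Jun*. As folds these were 411, 347, 38.9 and 21.0, and for *Atf3* the comparison includes the dim value of esophagus 4. *Jun* departed as far downward on esophagus 4 (-4.39) as upward on esophagus 2, where it lay 2.93 above esophagus 1 and 5.85 above esophagus 4. No other gene name departed upward as far as *Fosb* and *Atf3*, and *Fos* stood at 14 and *Jun* at 28 in that order. *Jund* lay 1.74 and *Fosl1* 1.52 above, whereas *Junb* lay 0.82, *Fosl2* 0.15, *Batf* -0.01 and *Batf3* -0.03 away. At a bound of 1 log2 unit, 6 of 10 members departed upward and none downward, against 2.3% and 1.07% of all gene names. Since 1 array has no replicate of its own, these departures carry no test. In the stomach organoids of the same mouse none of these 4 departed upward by 1 log2 unit, with *Fosb* at -0.43, *Fos* at 0.10, *Jun* at 0.64, the highest of its stomach values, and *Atf3* at -1.32, which includes the high value of stomach 4 and lay 0.05 above stomach 1.

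**Figure D3:**
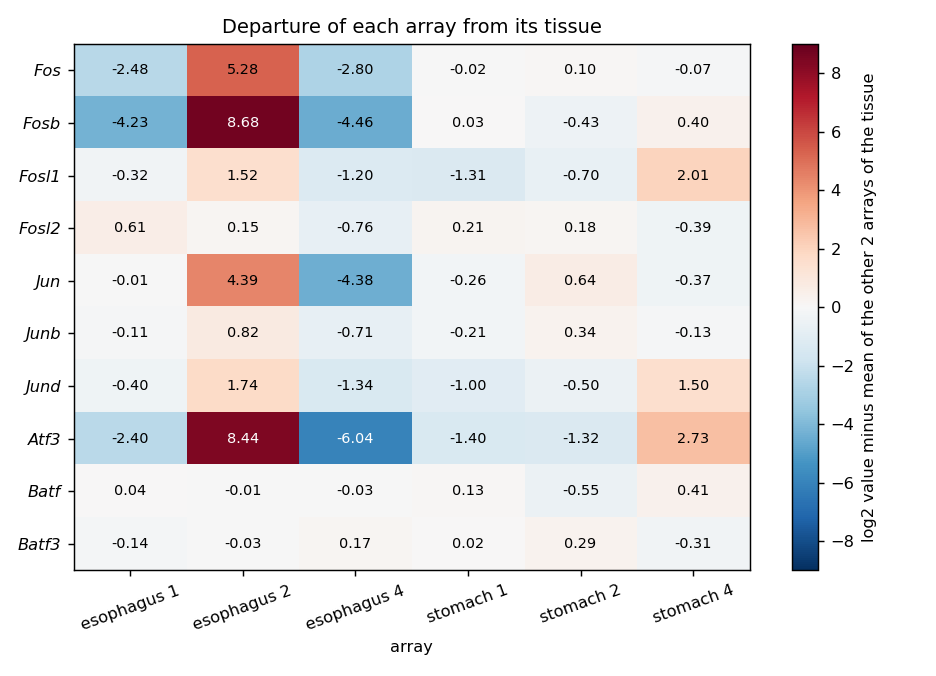
Departure of each array from the mean of the other 2 arrays of its tissue (log2 units, color and printed value) for the 10 AP-1 member genes. The column of esophagus 2 holds the highest values, 8.68 for *Fosb* and 8.44 for *Atf3*, and stomach 4 holds 2.73 for *Atf3*.

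The high values of esophagus 2 lower the departures of the other esophagus arrays, so these were compared with each other directly. *Jun* was 2.92 higher on esophagus 1 than on esophagus 4, and *Atf3* read 2.43 higher against a value on esophagus 4 that was not well above background, while the other 8 members differed by at most 0.91. That is 2 of 10 members at least 1 log2 unit higher on esophagus 1, beside 4.58% of gene names, and none that much higher on esophagus 4, beside 3.71%. Of the other immediate-early genes 13 of 28 were that much higher on esophagus 1 and 1 on esophagus 4. Stomach 1 and stomach 2 lay within 0.60 of each other for all 10 members.

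On stomach 4, the array harvested a day earlier, 3 of 10 members departed upward and none downward, beside 2.24% and 2.47% of gene names. These were *Atf3* by 2.73, *Fosl1* by 2.01 and *Jund* by 1.495. The same 3 members were among the 6 that departed on esophagus 2, but *Fos* (-0.07), *Fosb* (0.40) and *Jun* (-0.37) did not reach that bound on stomach 4. Harvest day and mouse cannot be told apart for this array.

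Across the 6 arrays, *Fos* and *Atf3* had a Pearson r of 0.93, *Jun* and *Fosb* 0.868, and *Fosl1* and *Junb* 0.885, a description in which tissue and the array esophagus 2 enter together. The genes closest to *Fos* over 15631 compared gene names were *Gdap10* (0.992), a noncoding interval (0.990), *Osbpl10* (0.989), *Gm11175* (0.983) and *Stat3* (0.968). Closest to *Jun* were *Dnase1l2* (0.990), *Klhdc7b* (0.987), *Tom1* (0.985) and 2 noncoding intervals. Closest to *Fosl1* were *Ywhag* (0.993), *Ankfy1* (0.992), *Arid2* (0.991), *Zglp1* (0.991) and *Kcnrg* (0.990).

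The upstream 250 bases of the 4 members that departed most on esophagus 2 are shown because these genes moved together on that array, a choice made after their values were seen. Promoters are from RefSeq (build GRCm38.p6), where 9 of the 10 members had an entry, and run 5′ to 3′ on the gene's strand, ending at the base before the annotated start. Capitals mark matches, on either strand, to TGACG, the core of the cAMP response element, or to TGACATCA, a variant of the AP-1 element. *Fos* lies at chr12:85473640-85473889 on the plus strand, and *Fosb* at chr7:19310046-19310295, *Jun* at chr4:95052223-95052472 and *Atf3* at chr1:191183334-191183583 on the minus strand.
Fos: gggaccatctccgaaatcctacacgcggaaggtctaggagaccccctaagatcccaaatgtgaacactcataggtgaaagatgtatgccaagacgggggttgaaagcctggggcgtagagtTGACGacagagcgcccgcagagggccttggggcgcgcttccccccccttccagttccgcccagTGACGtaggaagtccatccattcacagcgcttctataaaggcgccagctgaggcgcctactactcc
Fosb: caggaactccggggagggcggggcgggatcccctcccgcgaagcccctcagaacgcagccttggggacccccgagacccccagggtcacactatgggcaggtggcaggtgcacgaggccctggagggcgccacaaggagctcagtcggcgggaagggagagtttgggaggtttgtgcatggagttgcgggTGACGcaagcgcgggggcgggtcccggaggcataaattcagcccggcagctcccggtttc
Jun: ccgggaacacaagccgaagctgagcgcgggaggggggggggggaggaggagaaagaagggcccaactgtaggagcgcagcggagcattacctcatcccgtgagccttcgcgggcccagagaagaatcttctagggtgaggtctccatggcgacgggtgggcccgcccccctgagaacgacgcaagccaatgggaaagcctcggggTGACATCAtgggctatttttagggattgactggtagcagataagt
Atf3: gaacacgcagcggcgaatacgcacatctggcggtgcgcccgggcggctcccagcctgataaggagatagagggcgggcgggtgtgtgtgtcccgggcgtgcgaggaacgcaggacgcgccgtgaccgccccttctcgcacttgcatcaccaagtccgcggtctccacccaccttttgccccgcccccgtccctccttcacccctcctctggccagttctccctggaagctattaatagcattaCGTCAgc

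TGACG began 129 and 66 bases before the *Fos* start and 60 before *Fosb*, and TGACATCA began 45 bases before *Jun*. At *Atf3* the TGACG match was on the opposite strand, printed as CGTCA, and its first printed base lay 7 bases before the start. Among the other members with an entry, TGACG was found at *Junb* and *Batf*. In all, 5 members held TGACG, which 17.8% of 32851 promoter windows of the same length held, and TGACATCA was in 2.93%. The AP-1 element TGACTCA (4.46% of windows), the full element TGACGTCA (1.55%), which contains TGACG, and the CArG box bound by SRF (1.47%) matched none of the 9 member windows. Only exact matches within 250 bases were sought, so sites further upstream, or with other letters, were not examined at any member. A match is only a stretch of letters and not evidence of binding.

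Among the gene lists read beside the AP-1 members, the other immediate-early genes had the largest share departing on esophagus 2. On esophagus 2, 18 of 28 on the array departed upward and none downward, with a median of 1.78 beside -0.02 over all gene names. *Egr2*, a zinc finger factor of growth factor responses, read 6.30, 12.75 and 6.11 in esophagus organoids and 5.56 to 5.66 in stomach organoids, a departure of 6.55 or 93.4-fold. *Ccn1*, a matricellular protein, departed by 5.45 and *Nr4a1*, an orphan nuclear receptor, by 4.60. *Klf2* departed by 3.90. *Egr4* departed by 3.86, read against a mean that includes a value on esophagus 1 not well above background. On esophagus 4, 19 of 28 departed downward (median -1.65), and on stomach 4, 7 departed upward and 1 downward. Set directly against esophagus 1, 16 of 28 were at least 1 log2 unit higher on esophagus 2, beside 2.74% of gene names, and 1 was that much lower, beside 2.84%.

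Between tissues, 5 of the 28 immediate-early genes were called higher in esophagus organoids and 1 higher in stomach organoids. The called share was 21.4%, beside 14.9% of all gene names, or 28.4% when only probes above background were tested. *Arc* (3.82, adjusted p 0.0377), *Sgk1* (3.58, 0.00077), *Plk2* (2.16, 0.0439) and *Ier5* (1.39, 0.0281) led the esophagus side. *Ccn2*, a matricellular relative of *Ccn1*, was lower in esophagus, with a difference of -7.86 (adjusted p 3.23e-05). *Ccn2* was well above background on 2 of 3 esophagus arrays. The median difference of the list was 0.71. Without esophagus 2 the counts were 1 and 1 (7.14%, beside 11.1% of all gene names), and the median 0.31. *Arc* and *Plk2* were each called in 1 of the 6 fits that left out an array, the one without esophagus 4, and *Ier5* in 2, those without esophagus 4 or stomach 1.

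The MAP kinases ERK, JNK and p38 phosphorylate the AP-1 proteins and the SRF partners that switch on *Fos*. Of 22 genes of the cascade 1 was called (4.55%, beside 14.9% of all gene names), while 9 had an unadjusted p under 0.05. The called gene was *Mapk9*, which encodes the kinase JNK2 and had a difference of -0.79 (limma, adjusted p 0.0145). *Mapk9* was no longer called without esophagus 2 (adjusted p 0.051), stomach 1 (0.0684) or stomach 2 (0.0544), and without esophagus 2 none of the 22 was called (limma), with 6 at an unadjusted p under 0.05. The median difference of the cascade was 0.05, and none of its genes departed on esophagus 2. Of 6 genes for SRF and its partners none was called (limma), although 3 had an unadjusted p under 0.05, and *Srf* itself, named after its values were seen, departed by 1.44 on esophagus 2. Among 8 genes that modify or degrade JUN and FOS proteins, 25% were called, beside 14.9% of all gene names. *Csnk2a1*, a casein kinase subunit, was higher in esophagus by 0.67 and *Rps6ka1*, the kinase RSK1, lower, with a difference of -1.10. *Csnk2a1* was called in 1 of the 6 fits that left out an array, the one without stomach 4, and had an adjusted p of 0.0594 without esophagus 2. None of these 8 genes departed on esophagus 2 or stomach 4.

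The MAP kinase phosphatases (DUSPs) shut the cascade off and are themselves switched on by it. Of 11 genes, 4 were called higher in esophagus organoids and 1 higher in stomach. These make 45.5%, beside 14.9% of all gene names, or 28.4% when only probes above background were tested. *Dusp7* read 12.69, 12.33 and 11.75 against 8.01, 7.52 and 8.34, a difference of 4.30 ± 0.29 (adjusted p 5.3e-05). *Dusp14* was 2.93 and *Dusp6*, the ERK phosphatase, 1.78 higher. *Dusp2* read 7.23, 9.10 and 6.89 in esophagus organoids and 5.12, 5.30 and 6.03 in stomach organoids. On the stomach side only 1 array passed the detection flag for *Dusp2*, so its difference of 2.25 is mostly read against values near background. *Dusp9* was lower with a difference of -1.39, and 2 of its 3 esophagus arrays were well above background. Without stomach 1 or stomach 2, *Dusp14* and *Dusp2* were not called, and *Dusp14* was not without esophagus 2 either. The median over the 11 genes was 1.06, and without esophagus 2 it was 0.89, with 3 called higher and 1 lower. On esophagus 2, 4 of the 11 departed upward, as did 4 on esophagus 1, with medians of 0.54 and 0.65, and on stomach 4, 2 did. Set directly against esophagus 1, 2 of the 11 were at least 1 log2 unit higher on esophagus 2 and 1 lower, with a median of -0.10. Of all gene names 2.74% were that much higher there and 2.84% lower. On esophagus 4, 6 departed downward (median -1.28), and 6 were at least 1 log2 unit higher on esophagus 1 than on esophagus 4, with none the other way. Over all gene names 3.16% departed upward and 2.25% downward on esophagus 1, and 1.85% and 3.44% on esophagus 4. *Dusp1*, named after its values were seen, departed upward by 3.38 on esophagus 2 and by 2.94 on stomach 4.

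Cyclic AMP switches on *Fos*, *Fosb* and the NR4A genes through CREB, and by the methods forskolin was in the medium of the esophagus cultures. Of 15 cAMP-responsive genes, 5 departed upward on esophagus 2 and 5 on stomach 4, none downward on either. The list shares 5 genes with the lists of immediate-early, AP-1 target and bZIP genes, 3 of which (*Nr4a1*, *Nr4a2* and *Areg*) departed on both arrays, and of its 10 other genes 2 departed on each. On esophagus 4, 7 of the 15 departed downward. Between tissues 2 were called higher in esophagus and 3 higher in stomach. That share, 33.3%, compares with 14.9% of all gene names, or 28.4% when only probes above background were tested. *Pde4b*, a cAMP phosphodiesterase, was at least 9.55-fold higher in esophagus (adjusted p 0.000559), and *Sik1*, a CREB-induced kinase, was 1.40 higher (adjusted p 0.0239). Without esophagus 2 the counts were 1 and 3, and the median difference of the 15 genes was -0.41 against 8.74e-05 with all arrays. *Sik1* was called in 1 of the 6 fits that left out an array, the one without esophagus 4. The part of forskolin in these levels was not tested.

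**Figure D4:**
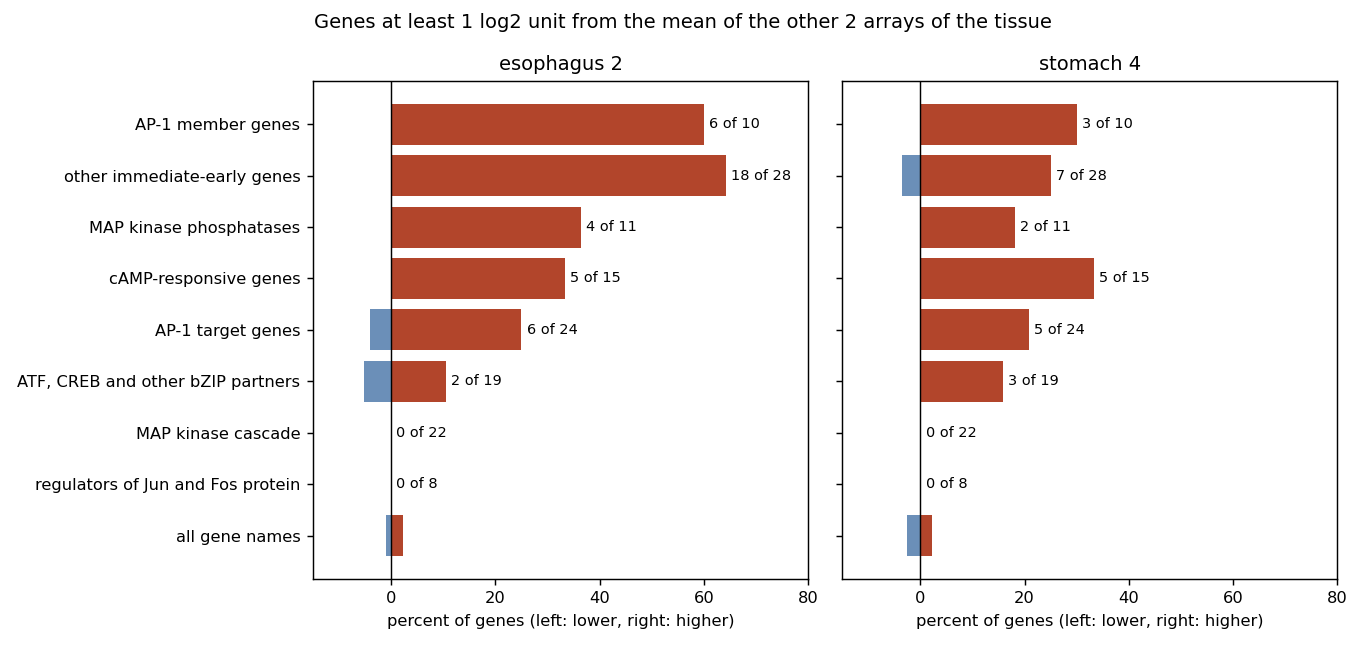
Percent of genes in each list at least 1 log2 unit above (red, right) or below (blue, left) the mean of the other 2 arrays of the tissue, on esophagus 2 and on stomach 4, with counts of genes above. The immediate-early list (18 of 28) and the AP-1 members (6 of 10) reach the highest shares on esophagus 2, and all gene names reach 2.3%.

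Of 19 ATF, CREB and other bZIP genes that can pair with or compete with AP-1, 2 were called higher in esophagus and 4 higher in stomach. This share of 31.6% stands beside 14.9% of all gene names, or 28.4% when only probes above background were tested. *Atf5* (2.07 ± 0.32, adjusted p 0.00443) and *Creb1* (1.16 ± 0.25, adjusted p 0.0213) were higher in esophagus. *Creb3l1*, a membrane-bound factor of secretory cells, read 8.43, 7.33 and 5.74 in esophagus organoids and 12.11, 12.24 and 12.20 in stomach organoids. Its difference was the largest in size of the 6 called, at -5.02 ± 0.58 (adjusted p 0.000988). *Creb3l4* (-2.47) and *Xbp1* (-1.79), factors of the secretory pathway, were also lower in esophagus. *Batf2*, a further member of the BATF group, was at least 3.33-fold higher in stomach organoids, and it was below the detection flag on all 3 esophagus arrays. The median over the 19 genes was 0.18. Without esophagus 2 it was 0.088, with 1 called higher and 4 lower in esophagus. *Creb1* was not called without esophagus 2 (adjusted p 0.0731), esophagus 4 (0.0512), stomach 1 (0.0939) or stomach 2 (0.0952).

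Genes known as AP-1 targets included 6 of 24 called higher in esophagus and 3 higher in stomach, with a median difference of 0.34 beside 0.03 over all gene names. Called were thus 37.5%, beside 14.9% of all gene names, or 28.4% when only probes above background were tested. *Sprr1b*, a cornified envelope protein, read 15.05, 15.40 and 11.97 in esophagus organoids and was at least 639-fold higher than in stomach organoids, where it was not well above background. That bound was 413-fold without esophagus 2 and 1355-fold without esophagus 4. *Lor*, loricrin, read 14.44, 16.94 and 10.38 against 6.58 to 7.16 (adjusted p 0.0152), and on esophagus 2 it departed by 4.53, more than any other of the 24. The difference of *Lor* was 6.98, and it was 5.47 without esophagus 2 and 8.75 without esophagus 4. *Gja1*, a gap junction connexin, was 4.99 ± 0.26 higher and *Plau*, urokinase, 2.08 ± 0.43 higher, with 2 of 3 stomach arrays well above background. *Lor* and *Plau* were not called without stomach 1 or stomach 2. The urokinase receptor *Plaur* (-3.97 ± 0.32) and the protease inhibitor *Timp1* (-1.20 ± 0.18) were lower in esophagus. On esophagus 2, 6 of the 24 departed upward and 1 downward, with a median of 0.27. The counts were 4 and 1 on esophagus 1 (median 0.36), 0 and 7 on esophagus 4 (median -0.47) and 5 and 0 on stomach 4 (median 0.36). At least 1 log2 unit higher on esophagus 1 than on esophagus 4 were 10 of the 24, and none the other way. Set directly against esophagus 1, 2 of the 24 were that much higher on esophagus 2 and 2 lower, with a median of 0.083. Of all gene names 2.74% were that much higher there and 2.84% lower. The counts between tissues were also 6 and 3 without esophagus 2.

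Markers of other cells were read beside these departures. The summed linear level of the 11 fibroblast and smooth muscle markers was 419 on esophagus 2 and 310 to 351 on the other 5 arrays, with *Acta2* alone departing, to 6.69. The summed immune markers on esophagus 2, 10150, lay between the 6023 of esophagus 4 and the 31360 of esophagus 1. On the same linear scale *Cd68* read 7885 on esophagus 2, 3567 on esophagus 4 and 28030 on esophagus 1. The markers other than *Cd68* and *Itgam* summed to 848 to 998 on these 3 arrays. The part of other cells in the levels on esophagus 2 was not tested.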

How the data were processed

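Transcripts of 6 organoid samples were measured on single-color arrays, and groups were taken from the labels. The authors deposited scanner intensity values of every spot, not normalized between arrays and read with Feature Extraction (version 11.5.1.1, build mm9), and a table of log2 values. Per the methods the authors background corrected and quantile normalized these log2 values. Correcting the median intensities by normexp (offset 15) rebuilt them within 0.243, and all 2029 empty cells were spots marked as outliers. Deposited log2 values were averaged over the spots of a probe, and the difference was fitted with limma 3.58.1 (R 4.3.3), with no block and p-values adjusted by Benjamini-Hochberg across 55681 probes. A fold against a tissue with no array well above background is a lower bound. Precision is limited by the number of arrays, and an exact permutation test of 3 against 3 cannot go below 0.1 and was not used. The numbers of the mice pair the arrays by animal, and deviations of the arrays of a mouse correlated with r = 0.025, 0.0119 and -0.00787 in mice 1, 2 and 4.

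The members and gene lists were chosen with earlier results of these data known. Named are all members, up to 4 called genes per list and direction that were detected on every array of either tissue, the 5 genes of the immediate-early, cAMP-responsive and phosphatase lists departing most on esophagus 2, and the 5 genes most like *Fos*, *Jun* and *Fosl1*. Some genes that this rule selects are not reported here. Exon and UTR positions of the probes were not analysed here. Alternatives were other background corrections and scaling, spot and probe handling, variance models, blocks for mouse and slide, and leaving out each array.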

Additional observations from a re-analysis of the deposited data

How the results depend on the processing

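The count of called members was 2 to 4 of 10 under the alternatives that kept all arrays and all probes, beside 12.8% to 21.7% of gene names. With only probes above background, which leaves out *Batf*, it was 2 of 9, beside 28.4% of gene names, a share below that background. It was 0 to 4 of 10 when an array was left out, beside 9.16% to 16.3% of gene names, with 0 without stomach 1. The other genes of the network called were 38 of 137, or 27.7% beside 14.9% of gene names, in lists chosen with earlier results known. With only probes above background the network share was 32.3% beside 28.4% of gene names, so these shares lay closer together. With an offset of 50 on mean signals the called network genes were 31 (22.6% beside 13.2%). At an unadjusted p under 0.05 with a 1.5-fold difference they were 55 (40.1% beside 21.7%). Those higher in esophagus, 22 of the 38, were 34 at that unadjusted threshold, 15 with an offset of 50, 14 without esophagus 2, 11 without stomach 1 and 10 without stomach 2, and those higher in stomach, 16 of the 38, were 21, 16, 14, 14 and 14. The network count was 24 to 47 when an array was left out, with 25 without stomach 1 (18.2% beside 9.16%) and 24 without stomach 2 (17.5% beside 9.3%). Without esophagus 4, *Arc* was 4.97, *Dusp14* 3.71, *Plk2* 2.87 and *Creb3l1* -4.31, without esophagus 2 *Arc* was 2.77 and *Dusp2* 1.57, and without esophagus 1 *Creb3l1* was -5.65. The 6 members departing on esophagus 2 were also 6 under each of 4 other processings. *Fosl1* kept its sign in 15 alternatives and its call in 11, and *Junb* in 12 of 15. With an offset of 50 on mean signals *Fosl1* (adjusted p 0.0573) and *Junb* (0.0614) were not called. The mouse as a replicate block left the count at 3, the same members, and the rest of the network at 38. *Fosl2* turned negative in the 3 versions rebuilt from mean instead of median signals, to -0.030 with an offset of 16, -0.029 with 50 and -0.026 with 16 and outlier spots kept, so that no single one of these choices can be named for it. It was -0.065 as a mean over probes, and lay between -0.19 and 0.27 when an array was left out. With background-subtracted intensities scaled to the 75th percentile, 2 choices changed together, which moved the median of all gene names to 0.19, *Jund* was 0.042 and *Atf3* -0.36. With the slide as a block, which drops esophagus 4 from the contrast, *Jund* was 0.13. Leaving out an array gave ranges of -1.43 to 1.27 for *Fos*, -0.034 to 2.89 for *Jun*, -2.12 to 2.71 for *Atf3* and -0.90 to 0.18 for *Jund*. The cause of these changes was not tested. *Batf*, dim on most arrays, has no value where dim probes were removed.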

Other observations

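Of 9 MAF and BACH genes, which encode bZIP relatives of the AP-1 proteins, 2 were called higher in esophagus, 2 higher in stomach and 5 in neither. The share called, 44.4%, stands beside 14.9% of all gene names, or 28.4% when only probes above background were tested. *Maf* read 10.57, 9.95 and 9.72 in esophagus organoids and was not well above background in stomach organoids, at least 38.0-fold lower there (limma, adjusted p 4.58e-06). *Bach2*, which read 5.81, 5.29 and 4.83 in esophagus organoids with 1 of 3 arrays well above background, was lower there than in stomach organoids (6.80 to 7.25). *Mafa* was also lower in esophagus (-0.77 ± 0.16), and was not called without esophagus 2, stomach 1 or stomach 2. On esophagus 2, 2 of the 9 departed upward.

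The cAMP phosphodiesterases did not move one way. *Pde4a* (-2.77 ± 0.24) and *Pde4d* (-1.48 ± 0.23) were lower in esophagus, opposite to *Pde4b*. *Ppargc1a*, a coactivator of mitochondrial genes, read 11.19, 10.83 and 10.99 in stomach organoids and was at least 59.0-fold higher there (adjusted p 7.63e-07), and it was below the detection flag on all 3 esophagus arrays.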
